A study of Mus musculus with 686 samples.

Results

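The kidney was compared with the other 12 tissues of a mouse small RNA series, using the ground mice of the live animal return extraction (LAR). These were female BALB/cAnNTac mice of 3 or 8 months, and none of them had flown. Habitat ground controls (HGC) lived at double density in flight hardware under conditions matched to the mission, and mold was found on their food bars, whereas vivarium ground controls (VGC) lived in standard cages. Both groups ate NASA food bars and were killed by cardiac puncture blood draw under anesthesia, which the labels give as gas and the methods as ketamine and xylazine. Members were all libraries labelled as ground LAR, 234 of the 686 in the series, from 28 animals. Of these, 19 were kidney, with 10 of HGC (5 of 3 months and 5 of 8 months) and 9 of VGC (5 and 4). The others were brown (BAT, 20), gonadal (GAT, 20), mesenteric (MAT, 19) and subcutaneous (SCAT, 20) adipose tissue, diaphragm (20), thymus (20), lung (20), liver (19), pancreas (18), heart (16), spleen (15) and brain (8, of 3 months alone). Each kidney library came from a trimmed piece of frozen tissue and not from a whole organ, so the part of cortex or medulla in it is not known. In such bulk samples, fewer cells of a type and less RNA per cell cannot be told apart. Within a housing group the kidney libraries came from different animals of both ages and from several pools. For single RNAs, p-values against other tissues rest on the spread of libraries around their tissue mean. That spread was estimated jointly over all 13 tissues, both housing groups and both ages. Tissues of the same animal counted as separate libraries there, except where pairing by animal is stated.

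The label of each library was checked against its miRNA profile, since the study lists pools of libraries and some of these pools hold mixed-up tissues. Overall 188 of 234 libraries were nearest to the tissue on their label. In the 11 pools ISS2 to ISS5, ISS19 to ISS22 and ISS39 to ISS41 this held for 14 of 50 libraries, and outside them for 174 of 184. Of the 19 libraries labelled kidney, 4 were nearest to another tissue. HGC 1 was nearest to GAT, VGC 11 to spleen, VGC 4 to liver and VGC 13 to heart. The first 3 lie in the 11 pools, as does VGC 1, whose profile was nearest to kidney. VGC 13 lies outside them, with a level of 44626 CPM for miR-1a-3p, a striated muscle miRNA. CPM here are counts per M (mega, the SI prefix) of the library's counts in the same RNA class. Another 5 libraries, labelled diaphragm, thymus, heart, liver and MAT, were nearest to kidney, and all of them lie in the 11 pools. The libraries of the 11 pools and kidney VGC 13 are called the doubted libraries. Values are given for all 234 libraries first, and again for the 183 that remain without the doubted ones, which are 14 kidneys (9 of HGC and 5 of VGC) and 169 others. Levels printed for other tissues are medians without the doubted libraries, except where class shares and numbers of miRNAs detected are given for all libraries. Kidney VGC 13 was added to the doubted libraries after seeing the data. Outside the 11 pools this was done for kidney alone, and 9 libraries labelled as other tissues and nearest to a tissue other than their own remain among the 169. These are adipose and pancreas libraries nearest to another of these tissues. All of them were found through miRNA profiles, so the values without them are not independent of the miRNA comparison.

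Small RNAs of 7 classes were counted. Mature miRNAs repress mRNAs that pair with their seed, the bases 2 to 8 of the miRNA. Transfer RNAs (tRNAs) carry amino acids to the ribosome, which is built on ribosomal RNAs (rRNAs). Small nuclear RNAs (snRNAs) splice mRNAs, small nucleolar RNAs (snoRNAs) guide modification of other RNAs, and piRNAs silence transposons in the germline. Long noncoding RNAs (lncRNAs) appear in such libraries as fragments or as hosts of smaller RNAs. The kidney filters blood in its glomeruli and reclaims water, salts and nutrients along an epithelial tubule. It is known for miR-192 and miR-194, which it shares with liver and gut, for miR-204, which is also found in pigment epithelium and choroid plexus, and for the miR-30 family in podocytes and tubules. Epithelia in general carry the miR-200 family, and tissues of the posterior trunk carry miR-10 and miR-196, whose genes sit among the Hox genes.

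The mature miRNAs on which the kidney results turn are shown from RefSeq on GRCm38.p6, with the seed in capitals, because several of them share a seed, through which they can pair with the same targets. The authors' files are on GRCm39, so these positions belong to the RefSeq table alone. Of 118 mature miRNAs looked for, 97 were in that table, and miR-187-3p and miR-874-3p are named only. The seed ACCCUGU is shared by miR-10a-5p (chr11:96317186-96317208, plus strand, near Hoxb4) and miR-10b-5p (chr2:74726074-74726096, plus strand, in an intron of Hoxd3).
mmu-miR-10a-5p: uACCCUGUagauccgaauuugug
mmu-miR-10b-5p: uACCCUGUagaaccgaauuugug

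The seed AGGUAGU is shared by miR-196a-5p, with 1 gene near Hoxb9 (chr11:96265187-96265208, plus strand) and 1 in an intron of Hoxc5 (chr15:102973365-102973386, plus strand), and miR-196b-5p (chr6:52230129-52230150, minus strand, in an exon of Hoxa9).
mmu-miR-196a-5p: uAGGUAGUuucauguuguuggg
mmu-miR-196b-5p: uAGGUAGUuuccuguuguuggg

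The seed UGACCUA is shared by miR-192-5p (chr19:6264857-6264877, plus strand, near Atg2a) and miR-215-5p (chr1:185313610-185313630, plus strand, in an exon of the noncoding gene 2010103J01Rik). Each has a gene of miR-194-5p, which has a seed of its own, beside it.
mmu-miR-192-5p: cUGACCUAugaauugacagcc
mmu-miR-215-5p: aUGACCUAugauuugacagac
mmu-miR-194-5p: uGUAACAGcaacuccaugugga

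The seed UCCCUUU is shared by miR-204-5p (chr19:22750610-22750631, plus strand, in an intron of Trpm3) and miR-211-5p (chr7:64205831-64205852, plus strand, in an intron of Trpm1).
mmu-miR-204-5p: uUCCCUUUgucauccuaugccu
mmu-miR-211-5p: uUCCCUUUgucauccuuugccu

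The seed GUAAACA is shared by the miR-30 family, of which miR-30e-5p (chr4:120772660-120772681, minus strand) and 1 gene of miR-30c-5p (chr4:120769584-120769606, minus strand) lie in introns of Nfyc, and miR-30a-5p lies near Ogfrl1 (chr1:23272274-23272295, plus strand).
mmu-miR-30e-5p: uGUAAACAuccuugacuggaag
mmu-miR-30a-5p: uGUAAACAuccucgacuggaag
mmu-miR-30c-5p: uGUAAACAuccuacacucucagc

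The seed AAUACUG is shared by miR-429-3p (chr4:156053916-156053937, minus strand) and miR-200b-3p (chr4:156055685-156055706, minus strand), both in an intron of Ttll10. The last miRNA shown, miR-190a-5p (chr9:67236700-67236721, minus strand), lies in an intron of Tln2.
mmu-miR-429-3p: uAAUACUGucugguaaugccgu
mmu-miR-200b-3p: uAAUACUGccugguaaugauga
mmu-miR-190a-5p: uGAUAUGUuugauauauuaggu

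Kidney libraries held more of their counts on miRNAs, snoRNAs and snRNAs than adipose tissue did, and fewer on tRNAs. Counts per kidney library had a median of 42.2 M over the 7 classes (range 24.3 to 86.7 M) and of 4.62 M on miRNAs (range 1.13 to 9.03 M). The miRNA share of these counts was 11.7% ± 5.21 (SD, n = 19) with a range of 1.68% to 20.0%. It was higher than in SCAT (3.84%), MAT (4.13%) and pancreas (2.71%), each at an adjusted permutation p of 4.67e-05, in GAT (2.94%, adjusted permutation p = 8e-05) and in BAT (8.73%, adjusted permutation p = 0.0487). It was lower than in heart (15.8%) and lung (15.8%), both at an adjusted permutation p of 0.0384. Paired by animal, with exact sign-flip permutation tests, 3 differences of like size no longer passed. They were 2.84 percentage points in BAT (2.97 unpaired; adjusted p = 0.0745, exact, 19 pairs), -4.73 in heart (-4.11 unpaired; adjusted p = 0.352, exact, 7 pairs) and -3.81 in lung (-4.12 unpaired; adjusted p = 0.114, exact, 19 pairs). These were 2-sided tests with 100000 resamples, or exact ones against brain, adjusted over 84 comparisons of 7 classes and 12 tissues. With the doubted libraries left out, the share was 13.2% ± 4.27 (n = 14) and 9 tissues differed from kidney instead of 7.

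**Figure D1:**
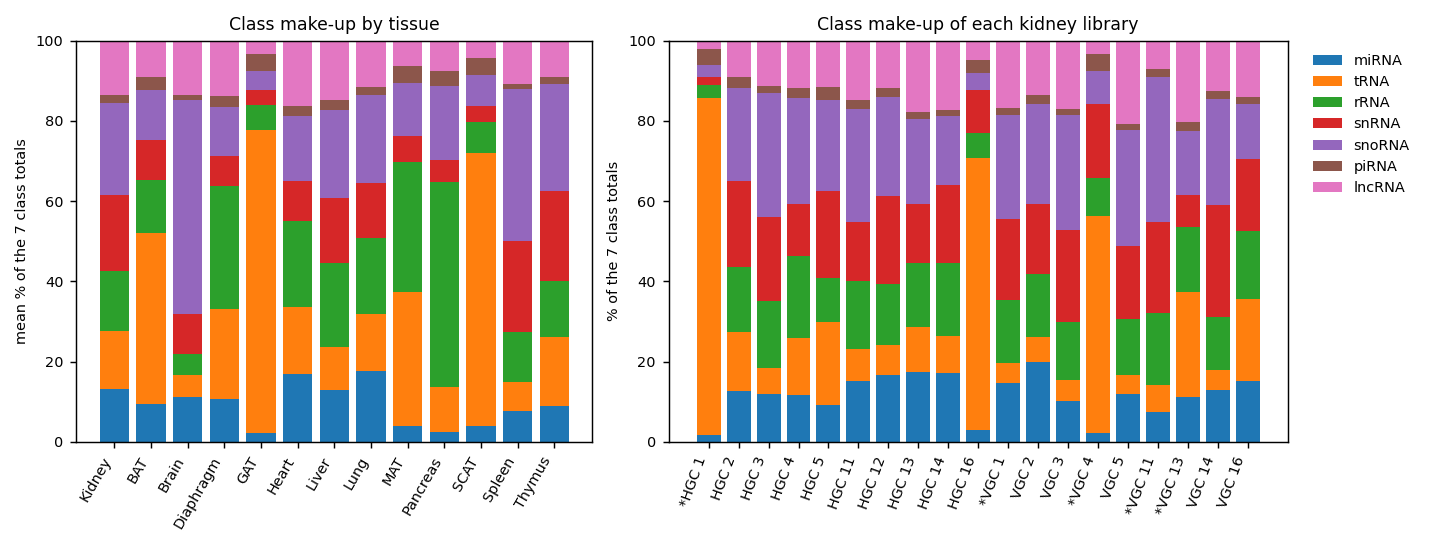
Share of the counts of the 7 RNA classes, in percent, as stacked bars. The left panel holds the mean of each tissue without the doubted libraries, and the right panel holds each of the 19 kidney libraries, where a star marks a doubted library. The tRNA part is 84.0% in HGC 1, 67.9% in HGC 16 and 54.1% in VGC 4, against a kidney median of 9.18%.

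tRNA counts made up 19.9% ± 23.1 (n = 19) of kidney libraries, with a median of 9.18% and a range of 4.82% to 84.0%. They were a smaller part than in GAT (69.7%), SCAT (66.8%), BAT (44.2%) and MAT (35.0%), and in no tissue was the share called lower than in kidney. The kidney mean rests on few libraries, since HGC 1 lay at 84.0%, HGC 16 at 67.9% and VGC 4 at 54.1%. HGC 16 is not a doubted library, while the others are. snRNAs took 17.6% ± 6.04 and were a larger part than in 9 tissues, among them BAT (9.08%), pancreas (5.45%) and GAT (4.35%). snoRNAs took 21.6% ± 9.08, less than in brain (49.0%, adjusted exact permutation p = 8.43e-05) and spleen (33.7%, adjusted permutation p = 0.00354). rRNAs took 14.4% ± 4.24, less than in pancreas (49.0%), MAT (30.5%) and diaphragm (29.1%). piRNAs took 2.33% ± 0.803 and lncRNAs 12.5% ± 5.41.

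Few miRNAs carried most kidney miRNA counts, though in most other tissues fewer still did so. The 10 most abundant held 53.6% (median of 19, range 46.0% to 69.8%), and 9 miRNAs were enough for 50% of the counts. The 10 most abundant, without the doubted libraries, held 53.1% in kidney. Only MAT (48.1%) and pancreas (48.5%) lay below that, and liver was highest at 70.5%. miR-26a-5p led with a median of 85125 CPM. It was followed by let-7c-5p (76945) and let-7a-5p (69058), then miR-378a-3p (42821), let-7f-5p (42580), miR-451a (38442), let-7b-5p (37301), miR-143-3p (31204), let-7g-5p (29532) and let-7d-5p (27564). None of these 10 was called in kidney against the mean of the other tissues, since their log2 fold changes lay between -0.06 and 0.74. Among them are the let-7 family, known for restraining growth genes, and miR-451a of red blood cells. miR-378a-3p, hosted by the metabolic coactivator gene Ppargc1b, had a median of 225860 in BAT. By seed, kidney counts were led by the let-7 seed at 35.2%, the largest such median of the 13 tissues and close to SCAT at 33.0%, and by the miR-26 seed at 9.79%. The miR-30 seed of miR-30a, miR-30c and miR-30e held 2.27%, ahead of BAT at 0.855%. These seed shares exclude the doubted libraries and cover only miRNAs with a sequence in the RefSeq table, which held 86.7% (54.5% to 91.4%) of the miRNA counts of the 19 kidney libraries. miR-30b-5p and miR-30d-5p are not in that share.

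At an equal depth of 400000 miRNA counts, 569 ± 23.5 miRNAs were expected per kidney library (SD, n = 19, range 529 to 613). That was fewer than in brain (676 ± 21.1), thymus (629), GAT (618), MAT (611), SCAT (606), spleen (598) and pancreas (592), and more than in liver (511 ± 42.4). The numbers in BAT (590, adjusted permutation p = 0.0614), lung (adjusted permutation p = 0.215), heart (adjusted permutation p = 0.278) and diaphragm (adjusted permutation p = 0.286) did not pass the test. Few animals pair kidney with brain or spleen. Over 6 pairs brain differed by -122 miRNAs (-106 unpaired), at the smallest p that 6 pairs allow (exact p = 0.0312, adjusted 0.0536), and over 7 pairs spleen differed by -50.5 (-29.1 unpaired; adjusted exact p = 0.0938). Without the doubted libraries kidney stood at 565 ± 18.2 (n = 14), and more miRNAs were then expected in it than in heart (528 ± 12.0, adjusted permutation p = 3.43e-05) and diaphragm (545 ± 26.5, adjusted permutation p = 0.0362).

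For single miRNAs, counts were scaled to the miRNA total of the library and fitted in edgeR with the 13 tissues as groups. A call needed a p under 0.05 after Benjamini-Hochberg adjustment and a log2 fold change beyond 1 in size. Of 1300 tested miRNAs, 172 (13.2%) were higher and 176 (13.5%) were lower in kidney than in the mean of the other 12 tissues, and 7 (0.538%) were higher than in each of the 12. The 7 were miR-10a-5p, miR-10a-3p, miR-30e-5p, miR-190a-5p, miR-190a-3p, miR-196a-1-3p and miR-3073b-3p. The last 2 are near the limit of detection and their place among the 7 is given no weight. miR-196a-1-3p had a kidney median of 3.38 CPM, a median of 0 in every other tissue, and at least 5 counts in 14 of the 19 kidneys and 7 of the 215 other libraries. miR-3073b-3p had a kidney median of 0.580 CPM and at least 5 counts in 4 kidneys and 4 other libraries. Without the doubted libraries the counts were 219 higher and 203 lower of 1277, with 15 higher than in each tissue. The median log2 fold change over all miRNAs was -0.02, and -0.06 without the doubted libraries. The split between higher and lower depends on the scaling: TMM factors gave 124 higher and 201 lower, DESeq2 gave 106 and 214, and scaling to the total of the 7 classes gave 388 and 147. Against single tissues, the number called ranged from 373 in MAT to 676 in brain, and liver was the tissue with the most miRNAs higher in kidney (346) and the fewest lower (59). These counts are given only for scaling to the miRNA total, of which miR-122-5p alone held a median of 351800 CPM in liver. With the animal as a replicate block, the pairing gave 170 higher, 188 lower and 9 higher than in each.

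miR-192-5p and miR-204-5p, taken as markers of kidney, were both higher in kidney than in the mean of the other tissues, but neither was highest there. miR-192-5p had a lowest, median and highest value of 352, 23327 and 57690 CPM in the 19 libraries. In the 14 without the doubted libraries the values were 18181, 23448 and 39971. Its log2 fold change was 3.34 ± 0.34 (SE, edgeR adjusted p = 3.73e-17), and 4.46 ± 0.24 without the doubted libraries. Liver held more, at a log2 fold change of -1.61 (edgeR adjusted p = 0.0343), and -1.68 (edgeR adjusted p = 0.00117) without the doubted libraries. Its median was then 86184 and its range of 59368 to 108830 did not overlap kidney, whereas in all libraries 1 doubted liver library, VGC 14, lay within the kidney range at 36964. Outside liver, 1 library that is not doubted reached the kidney range, a GAT library at 25164. Pancreas came after kidney with a median of 2198, at a log2 fold change of 3.02 (edgeR adjusted p = 0.000103). The low end of the kidney range belongs to doubted libraries, with 352 in VGC 13, 636 in HGC 1 and 906 in VGC 11.

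**Figure D2:**
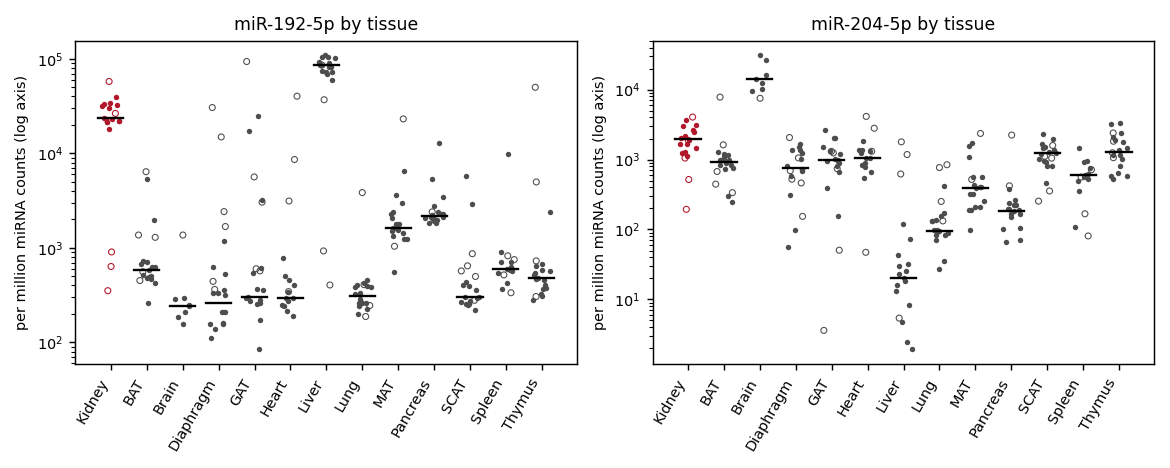
miR-192-5p and miR-204-5p in each library, in CPM on a log axis, by tissue. Kidney is red and the other tissues are grey, open circles are doubted libraries, and bars are medians without them (23448 for miR-192-5p in kidney, 86184 in liver; 1975 for miR-204-5p in kidney, 14186 in brain).

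miR-204-5p ran from 194 to 4053 CPM with a median of 1887 in all kidney libraries, and from 1139 to 3664 with a median of 1975 without the doubted ones. Its log2 fold change was 1.16 ± 0.29 (edgeR adjusted p = 3.95e-04), with 6 tissues called lower than kidney and 1, brain, called higher. Brain had a median of 14186 (9482 to 30860). The next tissues were thymus (1263), SCAT (1230) and heart (1054), and the lowest was liver (20.0). When the doubted libraries were left out, 7 tissues were called lower. Kidney was not called different from SCAT (log2 fold change 0.73, edgeR adjusted p = 0.0598) or thymus (0.48, edgeR adjusted p = 0.201), and heart (0.97) and GAT (0.84) passed on p but not on the fold change. miR-211-5p, which shares its seed, had a kidney median of 25.2 without the doubted libraries against 229 in thymus. With DESeq2 the fold change of miR-204-5p was 0.98, short of the threshold of 1.

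The miR-192, miR-194 and miR-215 group had 4 of 7 tested members higher and 1 lower, beside 13.2% and 13.5% of all tested miRNAs, with a median log2 fold change of 2.67. miR-194-5p had a median of 4545 CPM in the 19 libraries (89.5 to 19984), and 4698 (2804 to 8094) without the doubted ones. It rose by 3.34 ± 0.28 (edgeR adjusted p = 1.29e-23). Liver was again above kidney, with a median of 11777. That difference missed the threshold in all libraries (log2 fold change -1.17, edgeR adjusted p = 0.0608) and passed without the doubted ones (-1.41, edgeR adjusted p = 0.000552). On chromosome 1, miR-215-5p had a kidney median of 1.21 CPM in all libraries, against 140 in MAT without the doubted ones (log2 fold change against the mean of the other tissues -1.17 ± 0.57 in all libraries, edgeR adjusted p = 0.0982). The lower member was miR-215-3p (-2.07 ± 0.71, edgeR adjusted p = 0.0121), listed at a kidney median of 0. Without the doubted libraries miR-215-5p was called lower instead (-1.47, edgeR adjusted p = 0.0119) and miR-215-3p was not (-1.74, edgeR adjusted p = 0.0842). The seed of miR-192 and miR-215 in kidney was thus mostly miR-192-5p, and it held 2.35% of kidney miRNA counts against 8.62% in liver.

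The miRNAs from Hox loci had all 11 tested members higher in kidney than in the mean of the other tissues, beside 13.2% of all tested miRNAs (17.1% without the doubted libraries), and miR-10a-5p, miR-10a-3p and the rare miR-196a-1-3p higher than in each. Some of the 11 are scarcely seen outside kidney, which leaves little room for another outcome: miR-196b-3p reached 5 counts in 5 kidneys and 1 other library, and miR-196a-1-3p in 14 and 7. Their median log2 fold change was 3.01, and 3.95 without the doubted libraries. Their summed level was 22918 CPM (17443 to 35899, n = 14), against 9525 in GAT, the next tissue, and 121 in brain. miR-196b-5p ran from 36.4 to 9836 with a median of 6631 in all kidney libraries. Without the doubted ones its lowest value was 4486, its median 6696 and its highest 9836, and no other library of the 169 reached the lowest kidney. The log2 fold change was 4.37 ± 0.44 (edgeR adjusted p = 7.64e-18) with 11 tissues below kidney. GAT, with a median of 2158, was not among these at first (log2 fold change 1.43, edgeR adjusted p = 0.142) and was without the doubted libraries (1.59, edgeR adjusted p = 0.00363).

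**Figure D3:**
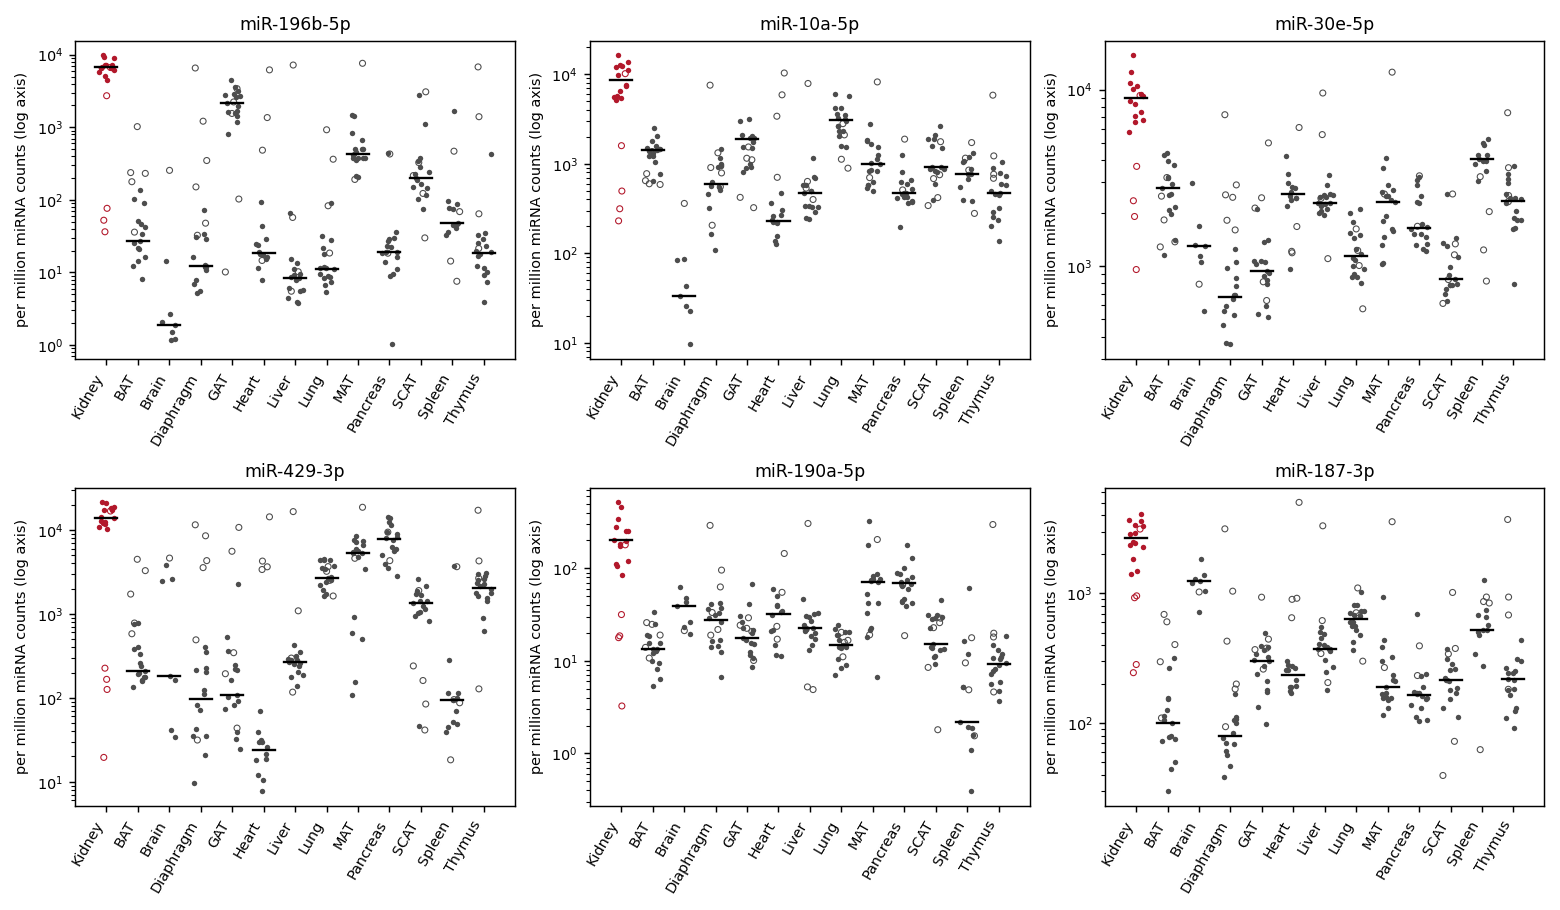
miR-196b-5p, miR-10a-5p, miR-30e-5p, miR-429-3p, miR-190a-5p and miR-187-3p in each library, in CPM on log axes, by tissue. Kidney is red and the others grey, open circles are doubted libraries and bars are medians without them. For miR-196b-5p and miR-30e-5p every filled kidney point lies above every filled point of the other tissues.

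Its sister miR-196a-5p had a median of 2616 (2.41 to 4366) in all kidney libraries and rose by 4.05 ± 0.51 (edgeR adjusted p = 2e-12). Here kidney and GAT lay together, since GAT had a median of 2647 and the difference was 0.03 on the log2 scale (edgeR adjusted p = 1.0). SCAT was not called in all libraries either (2.12, edgeR adjusted p = 0.0667) and was without the doubted ones (2.43, edgeR adjusted p = 0.00253). miR-10a-5p ran from 230 to 16306 with a median of 7331, and from 5134 to 16306 with a median of 8715 without the doubted libraries. It was higher than in all 12 tissues (log2 fold change 3.01 ± 0.22, edgeR adjusted p = 2.32e-28). Lung came next with 3077, at a log2 fold change of 1.37 (edgeR adjusted p = 0.00282), and 2 of the 169 other libraries reached the lowest kidney. The passenger strand miR-10a-3p had a median of 397 (5.29 to 647) and was also above each tissue (2.91 ± 0.23, edgeR adjusted p = 1.71e-25). Its kidney range without the doubted libraries was 227 to 647 with MAT next at a median of 106, and no other library reached that range. miR-10b-5p rose by 2.71 ± 0.30 (edgeR adjusted p = 5.34e-15) with 9 tissues below kidney. MAT (1.23, edgeR adjusted p = 0.0621), SCAT (1.03, edgeR adjusted p = 0.107) and GAT (0.29, edgeR adjusted p = 0.686) were not among these, and GAT alone was not when the doubted libraries were left out (0.33, edgeR adjusted p = 0.327), with medians of 3690 in kidney and 3318 in GAT. miR-615-3p, from an intron of a Hoxc gene, rose by 2.66 ± 0.36 (edgeR adjusted p = 8.19e-11), with a median of 142 in kidney, and of 170 in kidney and 204 in GAT without the doubted libraries.

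The miR-30 family, which is abundant in podocytes and tubules, had 8 of 11 tested members higher, beside 13.2% of all tested miRNAs, and none lower, with a median log2 fold change of 1.29. Summed over the family, the level was 29790 CPM (21719 to 46457, n = 14), and lung came next with 14549. miR-30e-5p ran from 958 to 15671 with a median of 8334, and from 5791 to 15671 with a median of 8946 without the doubted libraries. It was higher than in each tissue (1.97 ± 0.15, edgeR adjusted p = 2.29e-26). Spleen was next at 4040, and no other library of the 169 reached the lowest kidney. miR-30c-5p had a median of 8624 (1350 to 18146) and rose by 1.29 ± 0.15 (edgeR adjusted p = 8.32e-14), with 9 tissues below kidney and 12 without the doubted libraries. Its range overlapped others, as 23 of the 169 libraries reached the lowest kidney. miR-30a-5p rose by 1.58 ± 0.17 with kidney values of 580, 3830 and 7614. In the 14 kidneys that are not doubted these were 2337, 4184 and 7614, against a liver median of 2309. miR-30b-5p and miR-30d-5p were not called in all libraries, with log2 fold changes of 0.77 and 0.79. Without the doubted libraries miR-30b-5p was called (1.03, edgeR adjusted p = 7.31e-09), which made 9 of 11 beside 17.1% of all, and miR-30d-5p was not (0.90). Their medians were then 3497 and 727 in kidney against 3338 and 877 in lung.

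The miR-200 family, which keeps epithelial cells epithelial by repressing Zeb1 and Zeb2, had 6 of 10 tested members higher, beside 13.2% of all tested miRNAs, and none lower, with a median log2 fold change of 1.67. Without the doubted libraries all 10 of 10 were higher, beside 17.1% of all, and the median was 2.99. Pancreas, also rich in epithelium, was above kidney for the sum, with 87053 against 32500 (28287 to 39566, n = 14). Unlike miR-200b-3p, miR-429-3p had its highest median in kidney. It ran from 19.5 to 21268 with a median of 12625 in kidney, and from 10253 to 21268 with a median of 14007 without the doubted libraries. It rose by 2.78 ± 0.39 (edgeR adjusted p = 1.61e-10), and against pancreas, with a median of 7791, the log2 fold change was 0.62 (edgeR adjusted p = 0.516) and 0.93 (edgeR adjusted p = 0.0867) without the doubted libraries. miR-200b-3p, transcribed from the same locus, had a kidney median of 8348 (6099 to 11498, n = 14) and a pancreas median of 25632. On the other locus, miR-200c-3p stood at 6026 against 42295 in pancreas and miR-141-3p at 675 against 7059, also without the doubted libraries. miR-200c-3p was not called in all libraries (0.27, edgeR adjusted p = 0.688) and was without the doubted ones (1.55, edgeR adjusted p = 4.84e-08).

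Among the remaining miRNAs with the largest differences, miR-190a-5p had kidney values from 3.26 to 515 with a median of 179, and from 84.7 to 515 with a median of 200 without the doubted libraries. It was higher than in each tissue (2.69 ± 0.22, edgeR adjusted p = 9.91e-24). MAT came next at 70.7, and 8 of the 169 others reached the lowest kidney. miR-187-3p ran from 245 to 4081 with a median of 2443 and rose by 2.44 ± 0.23 (edgeR adjusted p = 6.36e-20). Brain was the only tissue not below it in all libraries (0.92, edgeR adjusted p = 0.131), and with the doubted libraries left out it was (1.13, edgeR adjusted p = 0.00042), at medians of 2698 in kidney and 1245 in brain. miR-874-3p rose by 2.52 ± 0.23, with a kidney median of 118 (79.4 to 324, n = 14) beside 134 in brain. miR-9-5p, best known from neurons, was second in kidney, with 1250 CPM (606 to 1718, n = 14) against 45351 in brain and 169 in MAT, the next tissue. miR-124-3p, another neuronal miRNA, had a kidney median of 47.1 (n = 14) against 170850 in brain.

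**Figure D4:**
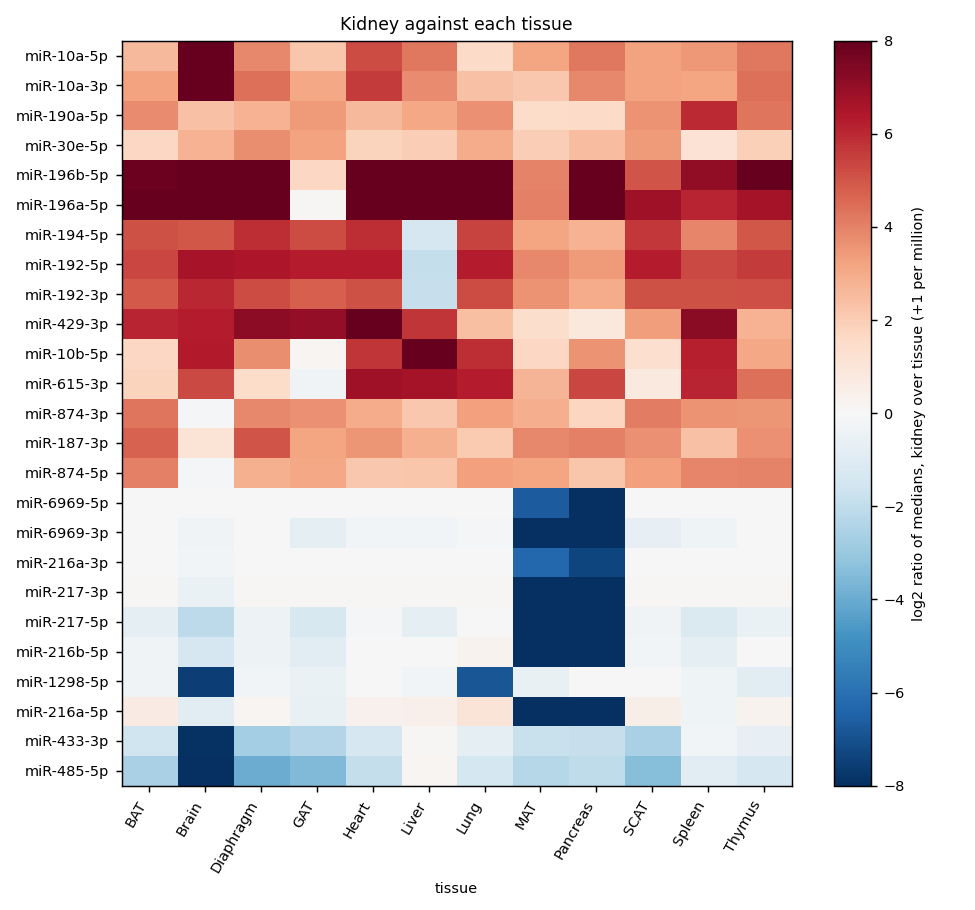
Log2 ratio of the kidney median to the median of each other tissue (1 CPM added to both, without the doubted libraries) for 15 named miRNAs that were higher in kidney and 10 that were lower. Red is higher in kidney and blue is lower, on a scale from -8 to 8. Differences beyond the scale are drawn at its ends. Against GAT, miR-196a-5p, miR-10b-5p and miR-615-3p are close to white while miR-196b-5p and both arms of miR-10a are red, miR-192 and miR-194 are blue against liver, and the lower miRNAs are darkest against pancreas, MAT or brain.

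Other lists did not separate kidney from the rest. Of the stroma miRNAs 0 of 10 were called (median log2 fold change 0.08), of the hypoxia miRNAs 0 of 2 (0.57), and of the miR-183, miR-96 and miR-182 sensory cluster 0 of 5 tested (-0.22). The sensory cluster moved with the doubted libraries, without which 2 of 5 were higher (0.81). Of the other epithelial miRNAs, 2 of 6 were lower, both of them arms of miR-205, an miRNA of stratified epithelium. miR-205-5p had a median of 376 CPM in kidney and 23165 in thymus, with a log2 fold change of -1.63 ± 0.60 (edgeR adjusted p = 0.0215) that was -0.61 (edgeR adjusted p = 0.294) without the doubted libraries. These shares stand beside 13.2% and 13.5% of all tested miRNAs called higher and lower.

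By log2 fold change over all libraries, the miRNAs lowest in kidney included those of exocrine pancreas and of brain. Their kidney medians are given here for the 14 libraries that are not doubted. miR-217-5p had a kidney median of 0.706 CPM against 13665 in pancreas, miR-216b-5p 0.444 against 5160 and miR-216a-5p 2.39 against 13420. miR-6969-5p had a median of 0 in kidney and 298 in pancreas, where its hairpin lies in an intron of Clps, the gene of the digestive cofactor colipase. For miR-217-5p the log2 fold change against the mean of all other tissues was -4.56 ± 1.14. miR-433-3p and miR-485-5p, from the imprinted cluster on chromosome 12, had kidney medians of 0.0685 and 0.450 against 250 and 356 in brain. They were lower in kidney than in 11 of the 12 tissues, at -3.57 ± 0.52 and -3.35 ± 0.45.

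That cluster, from Meg3 to Mirg (chr12:109541001-109749460 on GRCm38), is expressed from the maternal chromosome and holds 57 miRNA hairpins. Of its 96 tested miRNAs, 79 were lower in kidney, 1 was higher and 16 were neither, beside 13.5% lower and 13.2% higher of all tested miRNAs, with a median log2 fold change of -2.55. Leaving out the doubted libraries, 76 of 95 were lower (-2.96). Their summed level in kidney was 193 CPM (153 to 248, n = 14), near liver at 210 and below spleen at 676, while brain held 56703. All 14 snoRNAs tested in the cluster were lower as well, beside 23.0% of all tested snoRNAs, with a median log2 fold change of -2.19.

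For each of 7 lists of marker miRNAs of other cell types, the summed kidney median was below that of the tissue richest in them once the doubted libraries were left out. As the lists name miRNAs known to be abundant in particular tissues, this outcome was close to fixed. Set against the lowest other tissue, the leukocyte sum was lower in kidney (1491 against 1943) and the other sums were higher. The liver marker miR-122-5p ran from 27.4 to 166 CPM (median 59.8) against 351800 in liver. Summed over 6 striated muscle miRNAs, kidney ranged from 295 to 6560 against a median of 384280 in diaphragm. The 3 exocrine pancreas miRNAs summed to 3.78 (0.554 to 32.3) against 35994, and the 4 leukocyte miRNAs to 1491 (894 to 2505) against 77621 in spleen. The 3 neuronal miRNAs summed to 1278 (628 to 1775) against 218950 in brain, and most of that in kidney was miR-9-5p. Red cell miRNAs were abundant at 36262 (26615 to 71656), against 101940 in spleen, and endothelial miRNAs reached 19411 (16062 to 29553) against 63736 in lung. Of the muscle list, miR-208b-3p was at 0 in 5 of the 14 kidneys. In all libraries miR-122-5p was called higher in kidney than in the mean of the others (2.20 ± 0.52, edgeR adjusted p = 0.000159), and without the doubted libraries, among them VGC 4 with 151650, it was called lower (-4.43 ± 0.90, edgeR adjusted p = 7.31e-06).

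The spread among kidney libraries was smaller without the doubted ones. As 4 of these kidneys had miRNA profiles nearest to another tissue, a smaller spread follows from which libraries were left out. Over 177 miRNAs with a kidney median of at least 100 CPM, the median SD was 0.78 on the log2 scale with all 19 libraries and 0.44 with 14. The steadiest was miR-191-5p (SD 0.21 over the 14, 14620 to 25748) and the most variable miR-1a-3p (SD 1.40, 27.8 to 1675), the miRNA of striated muscle.

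Within tRNAs, scaled to the tRNA total, the isoleucine tRNA with anticodon TAT stood out. This minor isoleucine tRNA reads the rare ATA codon and its genes carry introns. Of 408 tested tRNAs, 71 (17.4%) were higher, 1 (0.245%) was lower and 2 (0.49%) were higher in kidney than in each tissue. TMM factors gave 27 higher and 1 lower, DESeq2 gave 22 and 9, and there were 52 and 4 without the 11 pools and 64 and 7 without the doubted libraries. The 2 were tRNA-Ile-TAT-1-1 and tRNA-Ile-TAT-2-2. tRNA-Ile-TAT-1-1 ran from 0.865 to 245 CPM with a median of 96.5, and from 7.31 to 245 with a median of 126 without the doubted libraries. It rose by 2.99 ± 0.22 (edgeR adjusted p = 2.32e-29), and brain came next with 33.7. In all, 4 of the 5 genes of this anticodon were higher, while tRNA-Ile-TAT-3-1 was not (0.05, edgeR adjusted p = 0.927). These are low levels, as the counts summed over the anticodon were 214, 1530 and 3052 per library at the lowest, median and highest.

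The selenocysteine tRNA-SeC-TCA-1-1, which inserts selenocysteine into enzymes such as glutathione peroxidases, had a median of 537 (18.8 to 2380) and rose by 1.94 ± 0.23 (edgeR adjusted p = 3.52e-13), with 10 tissues below kidney. Pancreas came next with 392, against a kidney median of 569 without the doubted libraries. All 7 phenylalanine tRNAs were called higher, beside 17.4% of all tRNAs, but 5 of them are copies with the same counts. For these copies, such as tRNA-Phe-GAA-1-1, the log2 fold change fell from 1.72 to 1.16 without the doubted libraries, the highest kidney value from 601 to 106 and the number of tissues below kidney from 9 to 6. Brain was above kidney for them, with a median of 66.2 against 45.3. The lower one was tRNA-Val-AAC-4-1 (-1.08 ± 0.24, edgeR adjusted p = 5.44e-05), which had a median of 211 in pancreas. By anticodon, glutamate CTC held 40.4% of the deposited kidney tRNA counts and glycine GCC 18.5%, but with identical genes counted once the order turned, at 22.4% and 26.3%. Identical tRNA genes share reads, and 408 genes gave 224 distinct count profiles, so the calls of gene copies are not separate results.

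**Figure D5:**
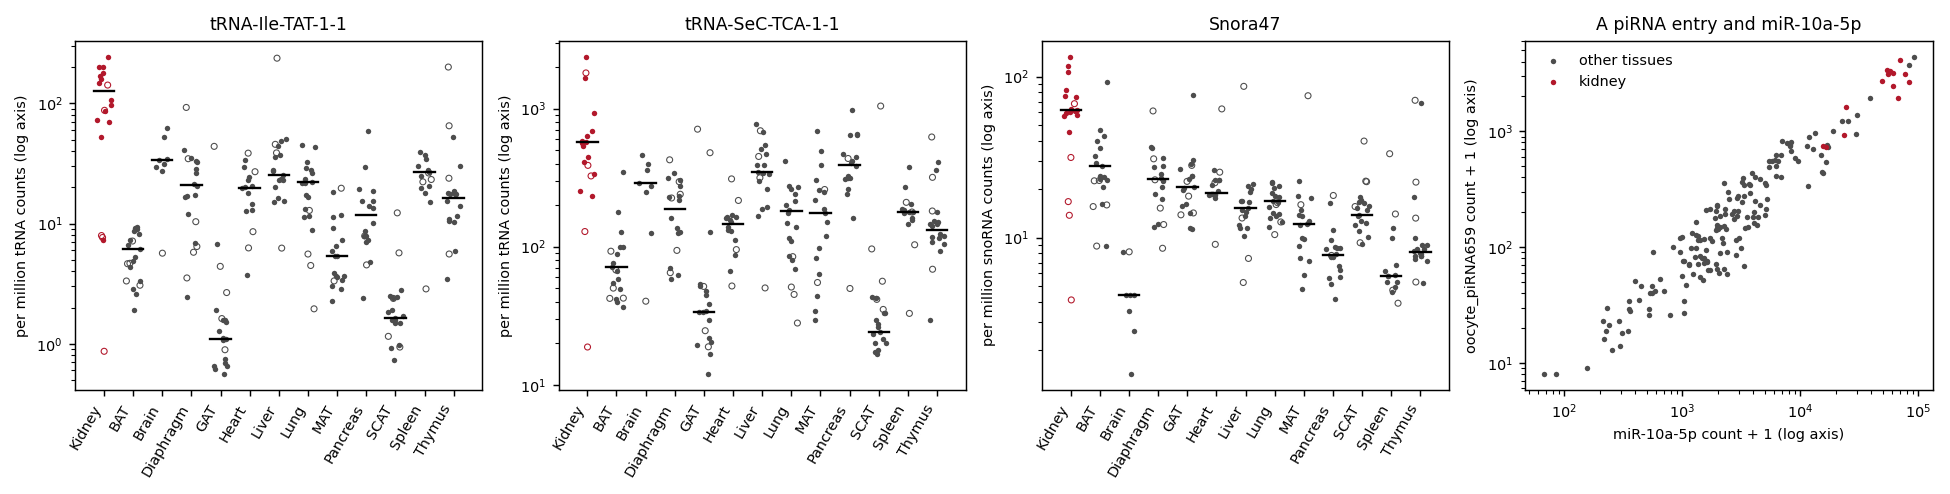
tRNA-Ile-TAT-1-1, tRNA-SeC-TCA-1-1 and Snora47 in each library, in CPM of their own class on log axes, by tissue, with kidney red, doubted libraries as open circles and bars as medians without them. The last panel plots the counts of oocyte_piRNA659 against those of miR-10a-5p, both on log axes, in the libraries without the doubted ones; in kidney the first was 4.97% of the second at the median.

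Among snoRNAs, 36 of 1040 (3.46%) were higher, 239 (23.0%) were lower and 1 (0.0962%) was higher in kidney than in each tissue. That one was Snora47 (ENSMUST00000157483.1), which lies in an intron of Zbed3 (chr13:95330600-95330737 on GRCm38, plus strand) and belongs to the H/ACA type that guides pseudouridine. It ran from 4.11 to 133 CPM with a median of 60.7, and from 45.5 to 133 with a median of 62.2 without the doubted libraries. It rose by 2.05 ± 0.16 (edgeR adjusted p = 2.17e-25), and BAT was next at 27.8. Gm22748, in an intron of the polyamine enzyme gene Odc1, had a median of 133 and rose by 1.52 ± 0.16 with 10 tissues below, and 12 without the doubted libraries, where kidney stood at 147 and heart at 71.5. The abundant snoRNAs Snord90 (30996), Snord80 (27426) and Snord42a (26618) were not called. How many snoRNAs were higher depends on the method and the libraries: DESeq2 gave 18, and 56 of 1012 were higher without the doubted libraries.

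The lower snoRNAs were mainly those of brain. Of the 239, 198 lay between positions 59228750 and 60140219 of chromosome 7 (GRCm38), where the imprinted Snhg14 transcript carries the Snord115 and Snord116 arrays, and 14 lay in the cluster on chromosome 12. In 228 of them brain was the highest other tissue. Over the 210 tested in the chromosome 7 interval, the median of the kidney medians was 3.40 CPM without the doubted libraries, against 859 in brain. As copies share reads, the 239 held 102 distinct count profiles, and the count depends on the libraries used: 107 of 1012 snoRNAs were lower without the 11 pools, and 208 when the single library of kidney VGC 13 was left out as well.

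Few rRNAs and snRNAs were called in all libraries. Of 284 rRNAs, edgeR called 0 (0.0%) higher, 0 lower and 0 higher than in each tissue, DESeq2 called 1, and edgeR called 1 higher and 2 lower of 282 without the 11 pools, and 1 and 19 when kidney VGC 13 was left out as well. 5S rRNA held 73.5% of the deposited kidney rRNA counts and 54.0% when identical copies were counted once. Of 903 snRNAs, 4 (0.443%) were higher, 26 (2.88%) were lower and 0 (0.0%) were higher than in each tissue, and without the doubted libraries 1 was higher and 30 were lower of 891. The U1 snRNA Rnu1a1 and its identical copies led with a median of 23358 CPM each. Gm26505 was among the lower ones (-1.09 ± 0.26), with 570 in diaphragm.

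Among features annotated as piRNAs, 209 of 1387 (15.1%) were higher, 12 (0.865%) were lower and 2 (0.144%) were higher than in each tissue. Leaving out the doubted libraries, 290 of 1230 were higher and 52 lower. The 2 were oocyte_piRNA659 and piR-9999. oocyte_piRNA659 ran from 4.56 to 5289 CPM with a median of 2400.0, and from 299 to 5289 with a median of 2639 without the doubted libraries. It rose by 3.69 ± 0.25 (edgeR adjusted p = 2.7e-32), with lung next at 1020. In a comparison chosen after seeing the data, scaled to the 7-class total over 183 libraries, the miRNA most like oocyte_piRNA659 was miR-10a-5p (Pearson r = 0.95 across libraries of all tissues). Its counts were 4.97% (2.89% to 6.55%) of those of miR-10a-5p in kidney. oocyte_piRNA1088 rose by 3.13 ± 0.33 with a median of 888 and was most like miR-200a-5p (r = 0.97), oocyte_piRNA311 rose by 1.18 with a median of 97490 and was most like miR-23a-3p (r = 0.97), and oocyte_piRNA41 rose by 2.47 with a median of 9171 and was most like miR-30b-5p (r = 0.88). piR-27 rose by 3.01 with a median of 230 and was most like miR-192-3p (r = 0.83). Other entries looked up were most like features of other classes. Examples are oocyte_piRNA905 (tRNA-Ala-CGC-5-1, r = 0.91), piR-1078 (the rRNA n-R5-8s1, r = 0.81) and piR-11779 (the lncRNA Gm36120, r = 0.90). piR-9999, with a kidney median of 23.7 CPM in all libraries, was most like the lncRNA 1700095J07Rik (r = 0.86). These libraries share tissue and depth, so the r values only describe likeness.

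Of 5942 lncRNA transcripts, 286 (4.81%) were higher, 90 (1.51%) were lower and 3 (0.0505%) were higher in kidney than in each tissue. The 3 were Gm15611, which reached 5 counts in 1 kidney and 1 other library and so shows no kidney level, and 2 transcripts of Gm34829 (median 4.51, range 0.131 to 121). Gm34829 was above only 4 tissues without the doubted libraries, where GAT had 5.09 against 4.53 in kidney. TMM factors gave 427 higher and 96 lower. Several abundant lncRNAs hold miRNA genes in their exons, and their counts were close to those of the miRNAs. 6720427I07Rik (132770 CPM) has let-7a-1, let-7d and let-7f-1 in its exons and had 1.07 (1.05 to 1.09) times the counts of the miRNAs of those hairpins. Lncppara (115910) has let-7b and let-7c-2 and a ratio of 1.01. Gm27028 was higher in kidney (1.44 ± 0.18, median 9206) and holds the second gene of miR-30c, with a ratio of 1.00 to its miRNAs. Snhg1 (46239) and Snhg12 (45154) hold snoRNAs in their exons, and their counts were not set beside those of the snoRNAs. These overlaps were also looked up after seeing the data. Malat1, a nuclear speckle RNA, had 3 of 4 transcripts higher, and Neat1, the scaffold of paraspeckles, 3 of 4. The imprinted growth regulator H19 was near the limit of detection, with kidney medians of 0 to 0.593 CPM over its transcripts, of which 7 of 7 were lower, and 6 of 7 without the doubted libraries (median log2 fold change -2.59 in all libraries). Transcripts of 1 gene share reads, so these are not separate results, and they stand beside 4.81% higher and 1.51% lower of all lncRNA transcripts.

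Housing and age were compared within kidney, over groups that include the 4 kidneys whose profiles were nearest to another tissue. Between HGC (n = 10) and VGC (n = 9), edgeR called 0 of 915 miRNAs (0.0%) at an adjusted p under 0.05, with 127 at an unadjusted p under 0.05, and DESeq2 called 2. Without the doubted libraries edgeR called 0 of 867, with 71 at an unadjusted p under 0.05. Few calls in groups of this size do not show that housing had no effect. The smallest p was that of miR-6953-3p (1.88 ± 0.41, edgeR adjusted p = 0.118). Between 8 and 3 months, 1 of 915 (0.109%) was called, with 124 at an unadjusted p under 0.05. This was miR-132-3p, induced by CREB in neurons, which had 0.688, 2.32 and 3.37 CPM at the lowest, median and highest at 3 months and 1.03, 30.0 and 160 at 8 months (log2 fold change 4.47 ± 0.74, edgeR adjusted p = 0.00422). The groups overlapped at their low ends, and without the doubted libraries the difference did not pass (3.40, edgeR adjusted p = 0.358), when edgeR called 0 of 867 by age, with 74 at an unadjusted p under 0.05.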

How the data were processed

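Small RNA libraries were made with the MGIEasy Small RNA kit in pools of barcoded samples and sequenced single-end by BGI. As the methods state, reads were mapped to GRCm39 and miRBase with miRMaster. The authors deposited raw counts per feature and library for lncRNA, piRNA, rRNA, snRNA, snoRNA and tRNA. The miRNA values they deposited are estimated counts, of which a few carry a fraction, and these were rounded for edgeR and DESeq2. Each table holds 452 more columns (flight libraries and the other extraction), not used here.

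Counts were scaled to the class total of each library and printed as CPM. Features with at least 5 counts in at least 10% of the libraries of a tissue group were tested in edgeR 4.0.16 (limma 3.58.1, R 4.3.3) by quasi-likelihood, without further normalization factors, and adjusted over the class. Called means an adjusted p under 0.05 and a log2 fold change beyond 1 (for housing and age, the adjusted p alone). DESeq2 1.42.0 was the alternative for the smaller classes. Single values were compared by permutation with 100000 resamples (Python 3.11.15, scipy 1.17.1, numpy 2.4.6, pandas 2.3.3), and plots used matplotlib 3.10.9. The fit was tested on simulated data.

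Same-numbered libraries of a housing group are tissues of 1 animal, which paired the samples. Deviations from the group means correlated at 0.0187 on average over 110 same-animal pairs and at -0.0293 over 1079 others. No 2 of the 171 pairs of kidney libraries agreed within sampling noise.

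Named miRNAs were list members, the 15 highest and 10 lowest fold changes of at least 100 CPM, and the 10 most abundant; named features of other classes were the 5 most abundant, the 5 highest and the 3 lowest, with features higher than in each tissue added. Features, lists and the libraries doubted were chosen with earlier results of these data known.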

Additional observations from a re-analysis of the deposited data

Results flagged for a closer look

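In 34 checks (17 measures in HGC and VGC kidneys), a single library stood apart from its group in 5, where chance gives about 1 in 20 groups. In VGC, the library of mouse 4 had 54.1% of its counts on tRNAs with the next at 26.2%. The same library had 4.13% on piRNAs with the next at 2.29%. In HGC, the library of mouse 1 had 636 CPM of miR-192-5p with the next at 18181. It also had 166 of miR-429-3p with the next at 10253. Both are in the 11 pools with mixed-up tissues. The library of HGC mouse 14, whose profile was nearest to kidney, had 515.0 of miR-190a-5p with the next at 280.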

How the results depend on the processing

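Except for the pairing, counts of calls are given here with higher and lower features in a single count. Most of these counts stayed within 1.5 times the value reported. Those that moved more are grouped here by setting, as the count under the setting and then the reported one. Counts of only higher or only lower features are not all listed, and some of them also moved more. For example, 18 snoRNAs were higher with DESeq2 (36), and 56 were without the doubted libraries. With TMM factors, 28 tRNAs were called (72), 5 were higher than in each tissue (2), and 0 lncRNAs were (3). With DESeq2, which was not run for piRNAs and lncRNAs, 31 tRNAs were called (72), 5 were higher than in each tissue (2), 1 rRNA was called (0) and 2 miRNAs differed between HGC and VGC (0). Scaled to the total of the 7 classes, 535 miRNAs were called (348), 16 were higher than in each tissue (7) and 2 differed by age (1). With no filter on low counts, 403 piRNAs were called (221), 1 was higher than in each tissue (2) and 4 miRNAs differed by age (1). Without the 11 pools, 14 miRNAs (7), 4 tRNAs (2), 2 snoRNAs (1) and 5 piRNAs (2) were higher than in each tissue, 3 rRNAs (0) and 157 snoRNAs (275) were called and 0 miRNAs differed by age (1). Without the 11 pools and kidney VGC 13, a setting chosen after seeing the data, 15 miRNAs, 4 tRNAs, 3 snoRNAs and 6 piRNAs were higher than in each tissue, 20 rRNAs and 342 piRNAs were called and 0 miRNAs differed by age. With identical features counted once, also chosen after seeing the data, 37 tRNAs (72) and 126 snoRNAs (275) were called. In VGC alone 3 miRNAs were higher than in each tissue and the miRNA share differed from kidney in 4 tissues (7), and in mice of 3 months alone 3 miRNAs were higher than in each tissue. With the animal as a replicate block, 1 piRNA (2) and 1 lncRNA (3) were higher than in each tissue, and with sign flips within animals the miRNA share differed in 4 tissues, without BAT, heart and lung, where the differences stayed of like size, and the number of miRNAs detected in 6 (8), without brain and spleen, where the differences were not smaller; the pairing also gave 1 snRNA higher (4 reported) and 3 tRNAs lower (1 reported), and moved no other count of calls by more than 1.5 times. No paired analysis was possible for housing and age because each animal gave 1 kidney.

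Some log2 fold changes against the mean of the other tissues changed sign. As reported these were not called, except for miR-205-5p and miR-122-5p. That of miR-122-5p, 2.20 and called in all libraries, was -4.02 without the 11 pools, -4.43 leaving out kidney VGC 13 as well, -2.54 with the animal as a block, -2.30 with the pool as a covariate, -3.51 in HGC alone and -3.08 in mice of 3 months alone. Without the 11 pools the others were 0.68 for miR-182-3p, 0.71 for miR-182-5p, 0.69 for miR-96-5p, -0.027 for miR-210-5p, 0.12 for miR-378a-3p, 0.12 for miR-802-3p, 0.57 for miR-802-5p and -0.068 for CT010467.1. Leaving out kidney VGC 13 as well, they were 0.76, 0.81, 0.79, -0.042, 0.038, 0.22, 0.66 and -0.072 in the same order, and -0.0055 for both transcripts of Snord80. With the pool as a covariate they were 0.26 for miR-182-3p, 0.53 for miR-182-5p, 0.45 for miR-96-5p, 0.13 for miR-199a-5p, 0.092 for miR-203-3p, 0.23 for miR-205-5p (-1.63 as reported), 0.14 for miR-378a-3p, 0.82 for miR-802-3p and 1.18 for miR-802-5p. Scaled to the total of the 7 classes they were 0.37 for miR-143-5p, 0.47 for miR-145a-5p, 0.58 for miR-182-3p, 0.57 for miR-182-5p, 0.63 for miR-199a-5p, 0.40 for miR-203-3p, 0.072 for miR-211-5p, 0.46 for miR-214-3p, 0.41 for miR-378a-3p and 0.52 for miR-96-5p. In VGC alone they were -0.39 for let-7b-5p, -0.12 for let-7c-5p, -0.21 for miR-183-3p, -0.25 for miR-183-5p and -0.22 for miR-200c-3p. In HGC alone they were 0.064 for miR-203-3p, 0.11 for miR-214-3p, 0.073 for miR-378a-3p and 0.16 for miR-802-5p. In mice of 3 months alone they were 0.064 for miR-182-3p, -0.13 for miR-183-3p and for miR-183-5p, 0.013 for miR-203-3p and 0.29 for miR-378a-3p. With TMM factors they were -0.094 for miR-183-3p, -0.093 for miR-183-5p and -0.055 for both transcripts of Snord80. With DESeq2 they were -0.13 for miR-183-3p, -0.14 for miR-183-5p, -0.035 for Snord42a and -0.11 for both transcripts of Snord80, which were at -0.036 with identical features counted once. The cause of these changes was not tested. In every setting in which they were fitted, the fold change of miR-196b-5p, miR-10a-5p, miR-192-5p, miR-30e-5p, miR-429-3p and miR-190a-5p stayed positive and past the threshold. Tissue mix-ups limit the values of all 234 libraries, other pools were not cleared of them, and the lowest miRNA total of 1.13 M limits what was seen of rare miRNAs.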

Other observations

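The arms of a hairpin were used unequally in kidney, as they were in the other tissues. The 5′ arm held 99.0% of miR-192 counts, 95.8% (89.6% to 98.2%) of miR-10a counts, 92.2% of miR-30e counts and 75.7% of miR-30a counts, as medians of the kidney libraries without the doubted ones, while miR-429 used its 3′ arm and had 0.0371% on the 5′ arm. miR-874 was near balance, with 55.6% on the 5′ arm (37.2% to 60.9%). Medians of the other tissues lay at 97.3% to 99.0% for miR-192 and 91.4% to 97.3% for miR-10a. They were 82.4% to 93.9% for miR-30e, 57.9% to 80.8% for miR-30a, 0.0% to 0.0556% for miR-429 and 43.5% to 74.4% for miR-874. Among lncRNAs of the chromosome 12 cluster, 45 of 66 tested transcripts of Rian were lower in kidney and 1 was higher, 7 of 12 of Mirg were lower, and 1 of 9 of Meg3 was lower (0 without the doubted libraries), beside 1.51% of all tested lncRNA transcripts. Transcripts of 1 gene share reads, and no difference between these genes was tested.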
